A study of Equus caballus with 6 samples.

Results

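Forkhead, SOX and homeobox transcription factors were examined in the inner cell mass (ICM) and trophectoderm (TE) of day 8 horse blastocysts. Members were taken by gene symbol: FOX, SOX, HOX, DLX, MSX, PBX, MEIS, LHX, POU, CUX, SATB, HNF1, ZFHX or the prefix of SIX4, followed by a family letter or number. SOX2, POU5F1, DLX5, the antisense row DLX6-AS1, FOXRED1 and FOXRED2 were left out. This gave 37 members among the 12270 rows of the deposited table, 14 forkhead genes, 4 SOX, 3 HOX, 4 TALE, 3 POU and 9 in the other families. LHX gave 0 members. Of the 37, 26 had at least 1 RPKM, the reads per kilobase of a gene after scaling for depth, in at least 3 libraries and were tested, and 11 were below that level.

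These factors bind DNA through a forkhead (winged helix), a SOX high mobility group box or a homeodomain, and many help to set the identity of cells. In the mouse blastocyst and early embryo, FOXA2 acts in the endoderm, DLX3 acts in the placenta, and SOX15 in trophoblast giant cells. HOX proteins mark position along the body axis later in development and often bind DNA together with TALE partners such as PBX and MEIS proteins. FOXO factors are held in the cytoplasm when AKT, the kinase downstream of insulin and growth factor receptors, phosphorylates them, so their RNA level alone does not give their activity.

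The 3 ICM libraries (15, 22 and 25) and the 3 TE libraries (16, 23 and 24) came from blastocysts of superovulated mares that had developed in vivo; strain, mare and sex are not given in the labels used here. TE was dissected by hand after Pronase, and ICM was cleaned by immunosurgery, which lyses outer cells with antibody and complement, so tissue and isolation cannot be told apart. RNA of both was amplified before sequencing. No library number occurs in both tissues, and whether libraries came from separate mares is not stated, so p-values reflect spread from library to library that may be partly technical. Recovered reads in genes ranged from 6622207 to 10686659 in ICM and from 6526212 to 9812871 in TE.

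The tissues were checked against defining markers. Epiblast markers (11 of 12 in the table) summed to 190 and 181 RPKM in ICM 15 and 22 and 74.1 in ICM 25, against 58.8 to 83.7 in TE. Trophectoderm markers (10 of 15) summed to 92.7 to 125 RPKM in ICM and 211 to 259 in TE. ICM 25 lay within the TE range for the epiblast sum, in which POU5F1 was the largest term in each ICM library, but above every TE library for 7 of the 11 epiblast markers, KLF4 and NANOG among them. For the trophectoderm sum it lay with the other ICM libraries. Hypoblast markers (16 of 21) summed to 136 to 203 RPKM in ICM and 208 to 242 in TE, of which DAB2 gave most in TE. Without DAB2, a sum taken after seeing the values, hypoblast markers came to 152, 167 and 93.6 RPKM in ICM 15, 22 and 25, against 74.5 to 86.1 in TE. Of the 15 hypoblast markers tested, 13 lay higher in ICM, 3 of them called (PDGFRA, CITED1 and SERPINH1), and DAB2 was called lower. CITED1 and SERPINH1 reached 1 RPKM in the ICM libraries alone, so their direction follows from how they passed the filter. Since ICM 25 stood apart for many genes, results that rest on it are given with and without it. Among the members tested, the median SD of a gene on the log2(RPKM + 1) scale was 0.45 in ICM and 0.17 in TE, and 0.10 between ICM 15 and 22 alone. Over all genes tested these medians were 0.44, 0.19 and 0.25, so the wider spread in ICM was not particular to the members.

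The 37 members covered a wide range of levels. MSX2, a homeobox target of BMP signalling, had the highest mean RPKM per length over the 6 libraries, at 23.2, above the mean of 87.7% of all rows. FOXO3 (19.99 RPKM), FOXN2 (18.4), FOXK2 (15.0) and PBX2 (12.1) followed, and POU2F1 and FOXJ3 lay close together, both at 11.6. At the other end, HOXC10, POU2F2 and SOX11 averaged 0.33, 0.33 and 0.28 RPKM. Depth differed as widely: ZFHX3, a very long zinc finger and homeodomain gene, had 15057 reads over the 6 libraries, and HOXC10 had 33. These are reads of amplified cDNA and no molecular identifiers are mentioned in the labels, so intervals from counts cover counting error only.

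**Figure D1:**
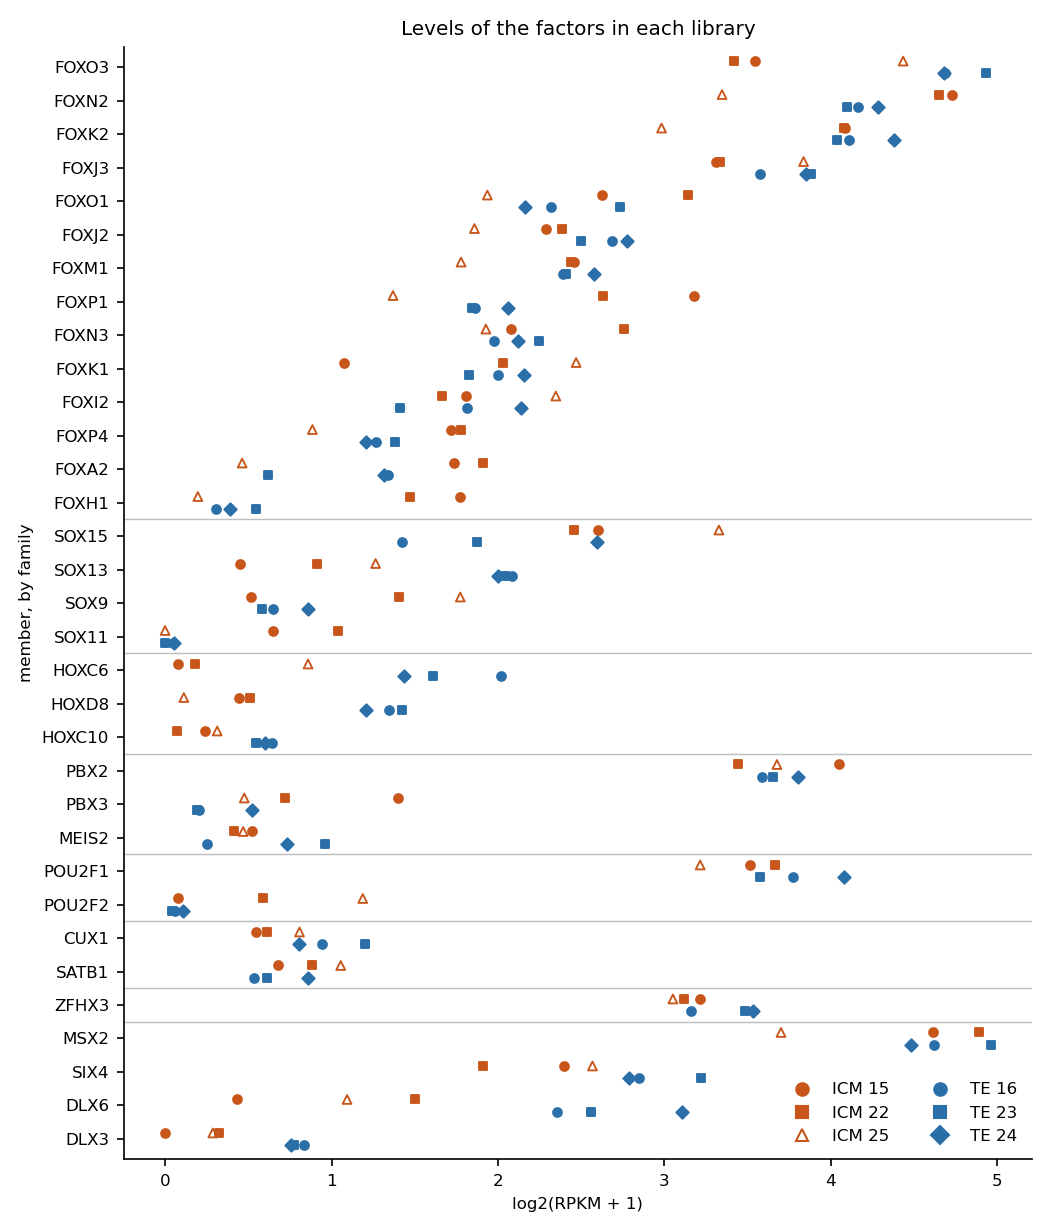
Level of 33 members in each library on the log2(RPKM + 1) scale, with ICM libraries in orange above TE libraries in blue and members sorted by mean RPKM within a family. MSX2, FOXO3 and FOXN2 are highest, and ICM 25 (open triangle) often stands apart from ICM 15 and 22, as for FOXP1 and FOXK2.

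Few members, and few of all genes, passed the test between the tissues. Among the members tested, the differences that separated all libraries lay in 1 direction. Of the 26 members tested, 1 was called (DLX6, lower in ICM; limma, adjusted p at 0.05), where 1.87% of the 9436 genes tested were called and 0.933% in this direction. None was called higher in ICM (0.933% of all genes). With voom on recovered reads 0 members were called in either direction, where 195 of the 9436 genes tested were, so that 0 says little about the members. Unadjusted p was under 0.05 for 8 members, or 30.8%, where it was for 16.9% of all genes tested (limma). The 3 ICM and 3 TE values did not overlap for 8 members, all lower in ICM (30.8%, where 24.6% of all genes tested were separated and 17.8% in that direction), and for 0 members higher in ICM (6.81% of all genes). Among the 8 were DLX6, HOXC6, HOXD8, SOX13, FOXO3, SIX4 and FOXJ2. HOXC6 and HOXD8 reached 1 RPKM in the 3 TE libraries alone, so their direction and separation follow from how they passed the filter. Both are also among the 8 with an unadjusted p under 0.05 (limma). The median log2 difference, ICM minus TE, was -0.25 over the members tested and -0.15 over all genes tested. After rescaling by the median of ratios the medians were -0.088 and 0.0054. Then 6 of the 26 members were separated, all lower in ICM: the 8 without FOXO3 and SIX4. Of the 9436 genes tested, 1129 were then separated in that direction and 1209 in the other.

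Leaving out ICM 25 raised the number of calls. Then 9 of the 26 members were called (limma), or 34.6%, where 11.5% of all genes were. The 6 lower in ICM (23.1%, background 5.62%) included DLX6, FOXO3, HOXC6, HOXD8 and SOX13, and the 3 higher in ICM (11.5%, background 5.89%) included FOXP1. Of these, HOXC6 and HOXD8 had passed the filter through the TE libraries alone. Among the libraries left in this fit, SOX13 too reached 1 RPKM in TE alone. Values did not overlap for 15 members (57.7%, background 44.4%), 6 higher in ICM (background 21.6%) and 9 lower (background 22.8%). With ICM 25 kept but weighted by limma's library weights, 7 members were called, where 8.05% of all genes were (1 higher in ICM, background 3.87%, and 6 lower, background 4.19%). Without TE 16, 23 or 24, or without ICM 15 or 22, 0 members were called, where at most 76 of the 9436 genes tested were, so the 0 says little about the members. In these fits 6 or 7 members (23.1% or 26.9%) had an unadjusted p under 0.05 (limma), where 9.8% to 20.4% of all genes did.

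**Figure D2:**
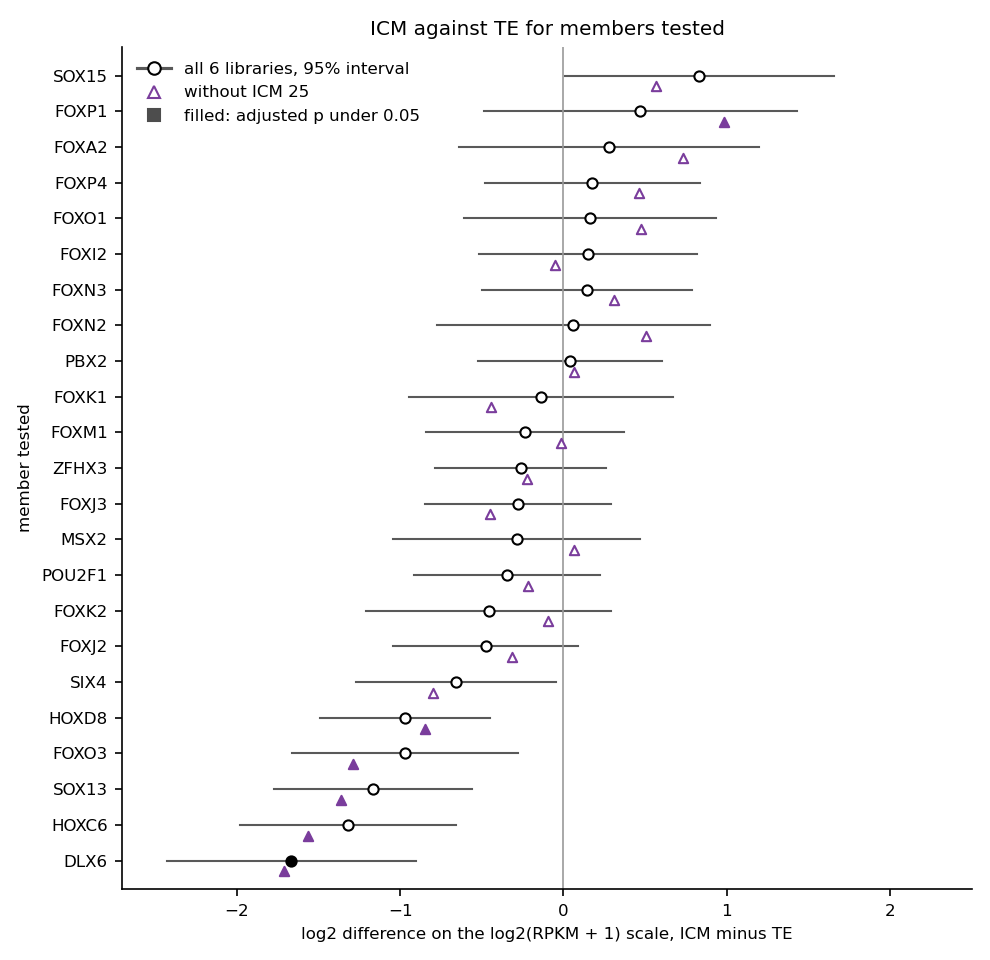
Log2 difference of ICM minus TE for 23 of the members tested, with the 95% interval of the fit on all 6 libraries (circles and lines) and the estimate without ICM 25 (triangles); filled symbols have an adjusted p under 0.05. DLX6 is filled in the fit on all 6 libraries, and 6 of those drawn are filled without ICM 25, among them FOXP1, at 0.98 without ICM 25 and 0.47 with it.

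DLX6, a distal-less homeobox factor known from craniofacial and limb development, fell in ICM. Its row (chromosome 4, 40177116 to 40179589, build not named) held 0.35, 1.83 and 1.13 RPKM in ICM 15, 22 and 25, against 4.12, 4.90 and 7.62 in TE 16, 23 and 24. Every ICM value lay below every TE value, by a log2 difference of -1.67 (SE 0.34, limma adjusted p = 0.047). The call was close to the threshold: over 12 alternative settings its adjusted p ran from 0.018 to 0.22, it was called in 3 of them, and leaving out any library but ICM 25 ended it, in fits that called at most 76 genes in all. In bulk samples fewer cells of a type and less RNA per cell cannot be told apart, here and below. The neighbouring gene DLX5, which starts 10274 bases beyond DLX6 in the deposited coordinates, stood at 2.58 ± 1.30 RPKM over the ICM libraries and 17.8 ± 0.69 over the TE libraries (SD, n = 3 each; limma adjusted p = 0.014). The antisense row DLX6-AS1 was at 0.83 ± 0.41 RPKM over the ICM libraries and 1.35 ± 0.08 over the TE libraries (adjusted p = 0.49). The strand setting of the counting is unknown, so reads from transcripts on opposite strands could have been pooled. Trophectoderm markers lay lower in ICM as DLX6 did (92.7 to 125 RPKM summed in ICM, 211 to 259 in TE), and their part in the difference was not tested.

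DLX3, the other DLX member, was below the filter. It had 0, 10 and 7 reads in ICM 15, 22 and 25, against 27, 18 and 23 in TE 16, 23 and 24, or 0.16 ± 0.14 RPKM in ICM and 0.73 ± 0.05 in TE. The tissues did not overlap, but DLX3 passed 0.40 RPKM, the lowest second-highest value of any row, in the TE libraries alone. The direction of DLX3 may thus follow from how rows entered the deposited table. In a fit on all rows with no filter its adjusted p was 0.17 (limma).

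All 3 HOX members lay lower in ICM, with no overlap between the tissues (15.8% of all rows were separated in that direction). HOXC6 held 0.053, 0.13 and 0.81 RPKM in ICM, against 3.06, 2.05 and 1.70 in TE (difference of -1.32 on the log2 scale, SE 0.29, adjusted p = 0.066 by limma). HOXD8 held 0.36, 0.43 and 0.081 RPKM in ICM, against 1.54, 1.68 and 1.31 in TE (difference of -0.97 on the log2 scale, SE 0.23, adjusted p = 0.076 by limma). HOXC6 was highest among ICM libraries in ICM 25 and HOXD8 was lowest there. Both entered the test only through the TE libraries, where they were high, so the test gives no support of its own to this direction. HOXC10, a neighbour of HOXC6 on chromosome 6, had 3, 1 and 4 reads in ICM, against 10, 6 and 9 in TE, too few to enter the test. It passed 0.40 RPKM, the lowest second-highest value of any row, in the TE libraries alone. Its direction may thus follow from how rows entered the deposited table. Other HOX genes are not analysed here.

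SATB1, which organises chromatin at AT-rich DNA, was below the filter, at 0.84 ± 0.24 RPKM over the ICM libraries and 0.59 ± 0.19 over the TE libraries with overlapping values. CUX1, a CUT homeobox factor, was at 0.58 ± 0.15 RPKM over the ICM libraries and 0.99 ± 0.28 over the TE libraries, and its highest ICM value (0.75) just passed its lowest TE value (0.74).

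SOX13, a SOXD protein that lacks an activation domain of its own, was tight in TE and spread in ICM. It held 0.37, 0.89 and 1.40 RPKM in ICM, against 3.24, 3.12 and 3.003 in TE (difference of -1.16 on the log2 scale, SE 0.27, adjusted p = 0.070 by limma). FOXO3 held 10.6, 9.68 and 20.6 RPKM in ICM, against 24.7, 29.6 and 24.7 in TE (difference of -0.97 on the log2 scale, SE 0.31, adjusted p = 0.16 by limma). ICM 25 stood between ICM 15 and 22 and the TE libraries for FOXO3, and without it the difference was -1.29 (limma adjusted p = 0.0063). After rescaling by the median of ratios ICM 25 overlapped TE for FOXO3.

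SIX4, a homeobox factor known from muscle development, held 4.26, 2.76 and 4.93 RPKM in ICM, against 6.19, 8.30 and 5.91 in TE (difference of -0.66 on the log2 scale, SE 0.27, adjusted p = 0.27 by limma). FOXJ2 held 3.89, 4.21 and 2.63 RPKM in ICM, against 5.43, 4.65 and 5.85 in TE (difference of -0.48 on the log2 scale, SE 0.25, adjusted p = 0.38 by limma). Both were separated by narrow gaps, of which that of SIX4 closed after rescaling by the median of ratios. Neither was called under any alternative run.

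A second group was high in ICM 15 and 22 and low in ICM 25. FOXP1, a forkhead repressor, held 8.04, 5.21 and 1.58 RPKM in ICM, against 2.63, 2.60 and 3.17 in TE (log2 difference 0.47, adjusted p = 0.63, and 0.98 with adjusted p = 0.036 without ICM 25). ICM 15 and 22 lay above every TE library and ICM 25 below every TE library.

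FOXA2, a pioneer factor of endoderm, held 2.33, 2.76 and 0.38 RPKM in ICM, against 1.53, 0.54 and 1.49 in TE. FOXP4, a relative of FOXP1, held 2.29, 2.43 and 0.85 RPKM in ICM, against 1.41, 1.61 and 1.31 in TE. FOXN2 had the same order, at 25.5, 24.1 and 9.17 RPKM in ICM, against 16.9, 16.1 and 18.4 in TE. None of these was called with or without ICM 25 (limma adjusted p without it 0.14 for FOXA2, 0.20 for FOXP4 and 0.090 for FOXN2). The row of FOXA2 counted only 876 bases of gene and 207 reads over the 6 libraries, which limits the precision of its level.

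In 6 of the members tested, FOXP1, FOXA2, FOXP4 and FOXN2 among them, the ICM 15 and 22 values lay above every TE value (23.1%, where 21.6% of all genes tested did). In all 6, ICM 25 lay below every TE value, while among all genes of that kind 49.1% did so, or 10.6% of the genes tested. ICM 25 was the lowest of the 6 libraries for 16 members (61.5%), where it was lowest for 50.9% of all genes tested. The scaling bears on these orders: the median of ratios to the other libraries was 0.74 in ICM 25 and 1.01 to 1.15 elsewhere. After rescaling by it, an alternative chosen after seeing these values, ICM 25 lay below every TE value in 3 of the 6, FOXP1 and FOXN2 among them but not FOXA2 or FOXP4 (11.5%, where 5.71% of all genes had this order). ICM 25 was then the lowest library for 8 members (30.8%, where it was for 25.5% of all genes).

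The endoderm partners and targets that are not members were mixed in this respect. The same order was held as deposited by 6 of the 16 tested (37.5%, where 10.6% of all genes had it): APOA2, GATA4, GATA6, HNF4A, HNF4G and LAMA1. HNF4A, a nuclear receptor of endoderm, held 8.62, 7.27 and 1.14 RPKM in ICM, against 4.29, 4.92 and 4.05 in TE. In 5 others, APOA1, CDH2, COL4A1, FGB and PDGFRA, ICM 25 lay above every TE library, and over the list it was the lowest of 6 for 7 of 16 genes (43.8%, where it was for 50.9% of all genes). Among the hypoblast markers tested, ICM 25 was the lowest of 6 for 5 of 15 (33.3%) and the highest for 3, and their part in the levels of the members was not tested.

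**Figure D3:**
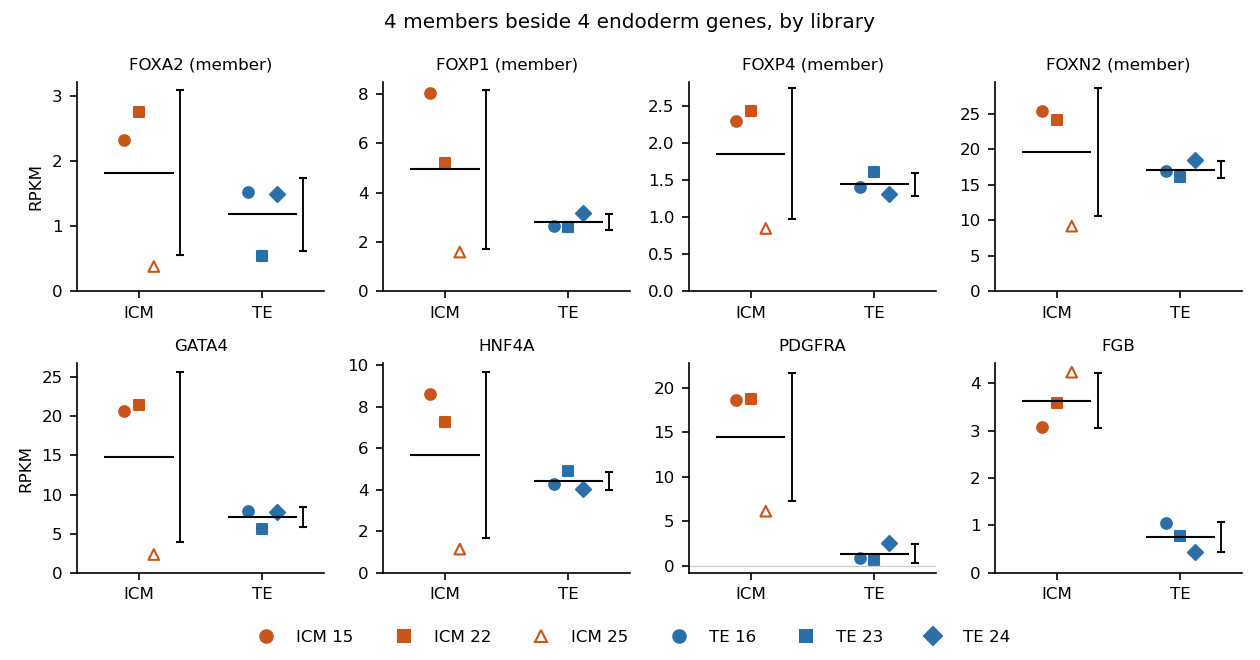
RPKM by library for the members FOXA2, FOXP1, FOXP4 and FOXN2 (top) and the endoderm genes GATA4, HNF4A, PDGFRA and FGB (bottom), ICM left of TE, with the mean as a line and the SD (n = 3) as a bar beside it. ICM 25 (open triangle) stands below the TE libraries for the members, as for FOXP1 at 1.58 RPKM, and for GATA4 and HNF4A, but above them for PDGFRA and FGB; these 4 endoderm genes were chosen after their values were seen.

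FOXH1, which brings SMAD proteins to DNA in NODAL signalling, showed this order at low counts. It had 67, 60 and 4 reads in ICM 15, 22 and 25, against 7, 10 and 9 in TE 16, 23 and 24, or 1.44 ± 1.17 RPKM in ICM and 0.34 ± 0.11 in TE. SOX11, a SOXC factor of progenitor cells, had 15, 34 and 0 reads in ICM, against 1, 0 and 1 in TE. The ratio of its scaled reads, ICM over TE, was 22.1, with an exact 95% counting interval from 5.79 to 187 that covers counting error only. PBX3 had 102, 49 and 24 reads in ICM, against 10, 7 and 28 in TE, so that ICM 25 fell within the TE range. FOXH1, SOX11 and PBX3 were not called in the fit with no filter (limma adjusted p = 0.34, 0.32 and 0.30). That fit called 0 of the 37 members, where it called 0.929% of all rows.

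**Figure D4:**
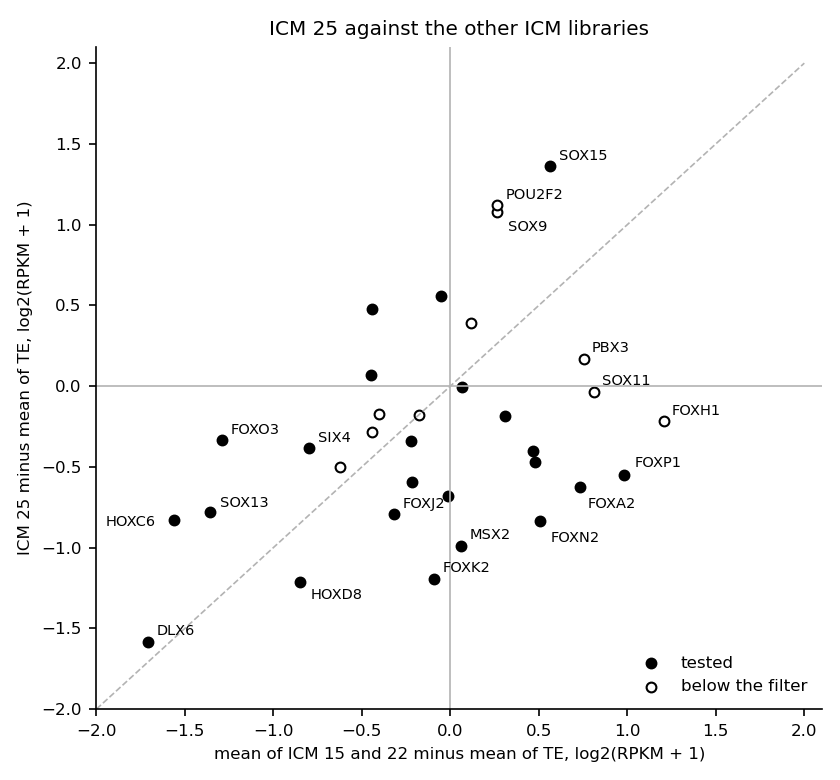
For 33 members, the mean of ICM 15 and 22 minus the mean of TE (x axis) and ICM 25 minus the mean of TE (y axis), both on the log2(RPKM + 1) scale, with the line of equal values dashed. FOXP1 lies at 0.98 and -0.55 and FOXA2 at 0.73 and -0.63, whereas DLX6 lies near the dashed line at -1.71 and -1.58.

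In 3 members tested (FOXI2, FOXK1 and SOX15), ICM 25 was the highest of the 6 libraries (11.5%, where it was highest for 9.95% of all genes tested). SOX15, a SOXG factor, held 5.06, 4.49 and 9.04 RPKM in ICM, against 1.68, 2.67 and 5.04 in TE (difference of 0.83 on the log2 scale, SE 0.36, adjusted p = 0.29 by limma). TE 24 lay within the ICM range, so the tissues overlapped. Of the members tested that lay higher in ICM, SOX15 had the smallest p (unadjusted p = 0.049, limma).

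SOX9, a SOXE factor of cartilage, gonad and many epithelial progenitors, had 20, 93 and 110 reads in ICM 15, 22 and 25, against 28, 18 and 39 in TE 16, 23 and 24. POU2F2, a POU factor best known from B lymphocytes, had 5, 55 and 113 reads in ICM, against 4, 2 and 7 in TE. The ratio of scaled reads of POU2F2, ICM over TE, was 12.0 (exact 95% counting interval 6.83 to 23.0). ICM 25 was highest for both. In RPKM, ICM 15 lay within the TE range for POU2F2 (0.056, against 0.028 to 0.075 in TE) and below it for SOX9 (0.43, against 0.50 to 0.82 in TE). Leukocyte markers were scarce: 3 of 10 were in the table (LYZ in more than 1 row), PTPRC, the defining pan-leukocyte gene, was not among the rows analysed, and their summed level was 1.53, 3.70 and 6.26 RPKM in ICM 15, 22 and 25, against 0.85 to 1.33 in TE. Their sum rose over the ICM libraries as POU2F2 did, but of the single rows only the LYZ row at 0, 0.90 and 1.21 RPKM had that order. The other LYZ row (0.68, 0.17 and 3.67 RPKM), which gave most of the sum in ICM 25, did not. CD74 (0.79, 2.44 and 1.39) and CD3E (0.058, 0.19 and 0) did not either. The part of leukocyte markers in the level of POU2F2 was not tested.

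POU2F1, the widely expressed octamer factor OCT1, held 10.4, 11.7 and 8.28 RPKM in ICM, against 12.7, 10.9 and 15.9 in TE (log2 difference -0.34, 95% interval -0.91 to 0.23, limma adjusted p = 0.54). MEIS2, a TALE factor, was at 0.38 ± 0.05 RPKM over the ICM libraries and 0.60 ± 0.38 over the TE libraries, and its values overlapped. Among the 11 members below the filter, 3 did not overlap (27.3%, where 25.4% of all rows did not). Of these, DLX3 and HOXC10 lay lower in ICM and 1 lay higher.

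**Figure D5:**
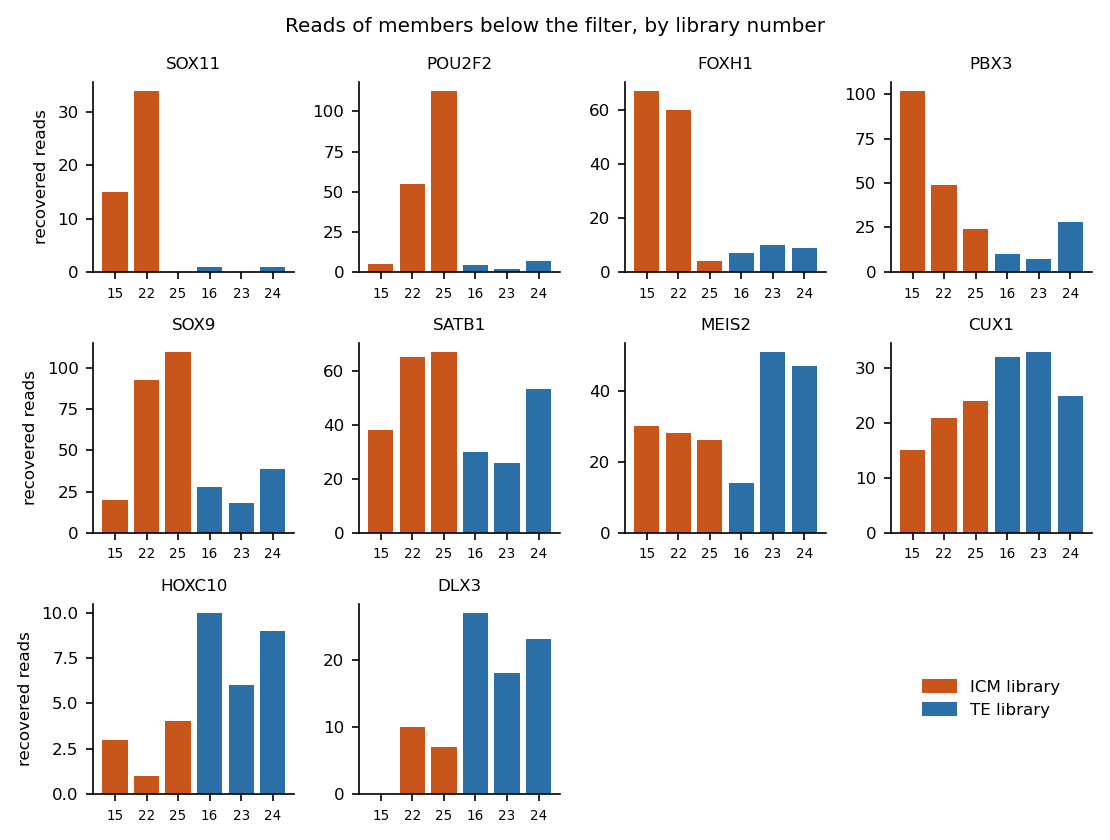
Recovered reads in each library for 10 of the members below the filter, ICM in orange left of TE in blue, each panel with its own axis from 0 and members ordered by the ratio of mean RPKM, ICM over TE. SOX11 and FOXH1 have most of their reads in ICM 15 and 22, POU2F2 most in ICM 25 (113), and DLX3 most in TE.

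The other members tested overlapped between the tissues and were called under no alternative. PBX2 and ZFHX3 had narrow spreads, PBX2 at 12.4 ± 2.89 RPKM over the ICM libraries and 11.9 ± 1.003 over the TE libraries (log2 difference 0.04, 95% interval -0.52 to 0.60) and ZFHX3 at 7.75 ± 0.49 in ICM and 9.55 ± 1.42 in TE (-0.26, interval -0.79 to 0.26). MSX2 held 23.4, 28.6 and 12.0 RPKM in ICM, against 23.6, 30.1 and 21.4 in TE, a log2 difference of -0.29 that was 0.063 without ICM 25. FOXK2, known in mouse muscle as a repressor of autophagy genes, was at 12.9 ± 5.22 RPKM over the ICM libraries and 17.2 ± 2.33 over the TE libraries, with its low ICM value in ICM 25 (6.90).

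FOXK1 was spread in ICM, at 1.10, 3.08 and 4.54 RPKM, against 2.996, 2.55 and 3.46 in TE. FOXO1 was at 5.28 ± 2.51 RPKM over the ICM libraries and 4.38 ± 1.14 over the TE libraries (log2 difference 0.16, 95% interval -0.61 to 0.93), where FOXO3 lay lower in ICM; the 2 differences were not tested against each other. FOXM1, which drives genes of mitosis, was at 3.78 ± 1.17 RPKM over the ICM libraries and 4.51 ± 0.40 over the TE libraries, FOXJ3 at 10.4 ± 2.48 in ICM and 12.7 ± 1.54 in TE, and FOXN3 at 3.93 ± 1.60 in ICM and 3.34 ± 0.41 in TE. The row named FOXI2 was at 2.92 ± 1.03 RPKM over the ICM libraries and 2.52 ± 0.87 over the TE libraries. The deposited table puts it on chromosome 15, while RefSeq's gene table of assembly TB-T2T puts FOXI2 on chromosome 1 and FOXI3 on 15, so which gene it measures is uncertain.

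Genes that work with these factors were read from lists. Among FOXO regulators and targets, 22 of 34 were tested and 0 were called in either direction, where 1.87% of all genes tested were. The median log2 difference was 0.04. Of the 22, 4 had an unadjusted p under 0.05 (limma), where 16.9% of all genes tested did. Voom called 0 of the list, where it called 195 of the 9436 genes tested. SGK1, a kinase that like AKT phosphorylates FOXO proteins, had the lowest adjusted p of the list (3.20 ± 1.10 RPKM in ICM and 8.09 ± 0.33 in TE, limma adjusted p = 0.069). Without ICM 25, SGK1 was called lower in ICM (adjusted p = 0.029) and the deacetylase SIRT1 higher (0.0063). All 13 FOXM1 targets were tested and 0 were called, with a median of -0.24. Of the 13, 2 had an unadjusted p under 0.05 (limma), where 16.9% of all genes tested did. Voom called 0 of these as well, where it called 195 of the 9436 genes tested. PLK1, a mitotic kinase, was at 18.6 ± 3.35 RPKM over the ICM libraries and 35.2 ± 2.02 over the TE libraries (adjusted p = 0.094).

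Of the endoderm partners and targets, 16 of 35 were tested, and the median was 0.47. Of the 16, 2 were called higher in ICM and 1 lower, where 0.933% of all genes tested were called in each direction. The calls were PDGFRA, a growth factor receptor of primitive endoderm (14.5 ± 7.22 RPKM in ICM and 1.35 ± 1.06 in TE, limma adjusted p = 0.032), and FGB, a fibrinogen chain (3.64 ± 0.58 RPKM in ICM and 0.76 ± 0.31 in TE, limma adjusted p = 0.034), and, lower in ICM, DAB2, an endocytic adaptor (32.8 ± 10.8 RPKM in ICM and 142 ± 12.4 in TE, limma adjusted p = 0.019). Without ICM 25, 8 were called higher (5.89% of all genes tested were) and 2 lower (5.62% were). Of the homeobox genes outside the member families, 16 of 50 were tested, 2 were called higher in ICM and 1 lower (0.933% of all genes in each direction). TGIF1, a TALE repressor, averaged 26.1 ± 1.61 RPKM in ICM and 1.83 ± 0.60 in TE (limma adjusted p = 0.0032), and NANOG, the pluripotency factor, 9.43 ± 6.71 in ICM and 0.12 ± 0.067 in TE (limma adjusted p = 0.046). The gene lower in ICM was PKNOX2, a TALE relative of PBX and MEIS, at 0.75 ± 0.23 RPKM over the ICM libraries and 4.02 ± 0.81 over the TE libraries (difference of -1.52 on the log2 scale, SE 0.24, adjusted p = 0.027 by limma). NANOG reached 1 RPKM in the ICM libraries alone and PKNOX2 in the TE libraries alone. Their direction thus follows from how they passed the filter, and their calls give it no support of their own. TGIF1 was above 1 RPKM in every library.

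The authors' deposited table, made with DESeq on the same libraries, called more members. It gave 13 of the 37 an adjusted p under 0.05 (35.1%, where it called 16.6% of its 12270 rows), 7 higher in ICM (18.9%, background 10.7%) and 6 lower (16.2%, background 5.96%). The 6 lower in ICM in the authors' deposited table included DLX6, HOXC6, HOXD8, SOX13 and FOXO3, and were the same 6 of 6 that limma called lower without ICM 25. Those higher in ICM in the authors' deposited table included POU2F2, SOX11, FOXH1, PBX3 and FOXP1, and 5 of the 7 were below the filter used here. POU2F2 had the smallest adjusted p in the authors' deposited table (1.36e-09, fold 12.6), although ICM 15 held 5 reads of it, within the TE range.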

How the data were processed

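RNA of 3 ICM and 3 TE libraries was sequenced. The deposited table gives RPKM per library, and, per the file headers, DESeq's mean normalized signal, the fold of ICM over TE as a ratio, its log2 value, a p-value, its adjusted value, and residual variances (a score, not used), which the authors computed. FastQC and DESeq are named in the submitters' processing notes, and no aligner, counter, build or annotation is given in the sources used here. The lowest second-highest value of any row is 0.40 RPKM. DLX3 and HOXC10 passed it in TE libraries alone, and SOX11 and POU2F2 in ICM libraries alone, which may bear on their direction. RPKM times the quotient of the authors' normalized mean and mean RPKM gave normalized counts. These were divided by a factor fitted for each library (from 0.83 in ICM 22 to 1.30 in TE 23). The results were whole reads, within 0.001, for 100% of values of up to 1000 reads.

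Genes that reached 1 RPKM in 3 or more libraries were fitted as log2(RPKM + 1) with limma 3.58.1 in R 4.3.3 (trend, two-sided moderated test, Benjamini-Hochberg at 0.05 over all genes tested), without pairing. This scale understates the change of low genes. The script was tested on simulated data. Alternatives were another pseudocount (0.1), no filter or a filter of 5 RPKM, median of ratios, quantile normalization, library weights, voom on recovered reads, and leaving out each library. Members and lists were chosen with earlier results of these data known. Members named with values were those called, separated or with a known role in early lineages, in each family the member with the highest mean and the 2 with the smallest p, and members below the filter with 20 or more reads; others are given by their range.

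Some members enter the counts but are not reported by name here. All 37 symbols were also in RefSeq's gene table of assembly TB-T2T, used for names only. Other marker lists (erythroid, 1 of 8 in the table; cumulus or granulosa, 2 of 8; endometrial, 3 of 6, of which UTF1 is better known as an embryonic factor) gave 0 calls with all libraries.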

Additional observations from a re-analysis of the deposited data

How the results depend on the processing

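No paired analysis was possible because no library number occurs in both tissues. The median log2 difference of the members tested ran from -0.31 to -0.07 over single libraries left out. DLX6 was the 1 member called; the number of members called lower in ICM was 0 after median of ratios, under voom, without the filter, at the 0.1 pseudocount, or at a 5 RPKM filter (which drops DLX6), 6 with library weights, and 0 to 6 with 1 library left out. Members called higher in ICM were 1 with library weights and 0 to 3 with 1 library left out. Members separated higher in ICM were 1 of 37 with no filter, where 1171 of 12270 rows were. With 1 library left out they were 0 to 6 of 26, where 761 to 2039 of the 9436 genes tested were. Members separated lower were 3 of 13 with a filter of 5 RPKM, where 1104 of 5433 genes were. With 1 library left out they were 8 to 10 of 26, where 1921 to 2945 of 9436 genes were. Over all genes, 88 calls in each direction became 29 and 52 with a filter of 5 RPKM and 365 and 395 with library weights. Those lower in ICM were 49 at the 0.1 pseudocount and 54 without the filter, and with 1 library left out the counts were 0 to 556 higher and 0 to 530 lower. Library weights gave 2 calls in the FOXO list, 1 in the FOXM1 list and 5 in the endoderm list, and a filter of 5 RPKM gave 1 among other homeobox genes. With 1 library left out these 4 lists had 0 to 2, 0 to 1, 0 to 10 and 0 to 5. The mean hypoblast sum, ICM minus TE, was -53.3 RPKM, and 55.8 without DAB2, also chosen after seeing the data. After median of ratios, an alternative added after seeing the data, members with ICM 15 and 22 above and ICM 25 below all TE numbered 3 in place of 6, and members with ICM 25 lowest 8 in place of 16. Among members given here, signs turned only for those not called with all libraries: FOXK1 (0.022 with median of ratios and 0.0078 with quantile normalization), and, with 1 library left out, FOXK1 (-0.44 to 0.25), FOXI2 (-0.052 to 0.33), FOXN2 (-0.18 to 0.51), FOXN3 (-0.11 to 0.31), FOXO1 (-0.13 to 0.48), MSX2 (-0.53 to 0.063) and PBX2 (-0.12 to 0.18). Apart from the changes that follow from fewer genes or libraries, the cause was not tested.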

Other observations

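Some genes of the list of FOXO regulators and targets were highest in ICM 25, although no gene of that list was called with all libraries. ICM 25 was the highest of the 6 libraries for 5 of the 22 list genes tested (22.7%, where it was highest for 9.95% of all genes tested). They were CCNG2, CDKN1B, FBXO32, GADD45A and MDM2; GADD45A and MDM2 are also known as targets of p53. ICM 25 was the lowest library for 8 of the 22 (36.4%, where it was lowest for 50.9% of all genes tested). FBXO32, a muscle ubiquitin ligase, held 1.02, 2.60 and 8.86 RPKM in ICM 15, 22 and 25, against 0.45, 0.51 and 0.44 in TE 16, 23 and 24 (limma adjusted p = 0.17). CDKN1A, an inhibitor of the cell cycle, was below the filter and held 0.16, 2.22 and 7.68 RPKM in ICM, against 0.15, 0.20 and 0.46 in TE. In the FOXM1 list, ICM 25 was the lowest library for 10 of 13 genes (76.9%, where it was lowest for 50.9% of all genes tested).

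The genes whose levels followed DLX6 most closely over the 6 libraries were PACSIN2, TRIP11 and PLEKHH3, with Pearson r of 0.998, 0.996 and 0.995 on the log2(RPKM + 1) scale. For SOX15 they were PTPN14 (0.996), a gene known by its Ensembl number only, and NTAN1 (0.987). With 6 libraries in 2 tissues and 9436 genes to choose from, such values describe these libraries and carry no test.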
